A study of Homo sapiens with 12 samples.

Results

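The 10 genes described here encode secreted inflammatory signals: the interleukins IL6, IL11, IL1A and IL1B, the IL-6 family cytokine LIF, and the chemokines CXCL8 (IL-8), CXCL1, CXCL2, CXCL3 and CCL20. They were chosen by name, as the probe sets listed for these genes alone, which gave 14 probe sets of the 22277 on the array and 10 genes of the 11963 tested. All 10 were measured, and no filter on low values removed any. RNA came from MDA-MB-231, an established human triple-negative breast cancer cell line, and each culture was measured on 1 Affymetrix expression array. Cells were kept for 24 h in the vehicle DMSO, in 5 uM SAHA (also vorinostat, which inhibits histone deacetylases), in 2.5 mM pargyline (an inhibitor of monoamine oxidases that can also act on the histone demethylase LSD1), or in both drugs at those doses, called COMBO below. Each of the 4 groups had 3 biological replicates, so 12 arrays were used. The model is this 1 line in culture, without other cells, and in RNA from whole cultures fewer cells of a kind and less RNA per cell cannot be told apart.

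Inflammatory cytokines carry alarm signals between cells. CXCL8, CXCL1, CXCL2 and CXCL3 are short chemokines with a shared motif before their first cysteines that draw neutrophils through the receptors CXCR1 and CXCR2, CCL20 acts through CCR6, the IL-6 family signals through the shared chain gp130 (IL6ST) to JAK kinases and STAT3, and the IL-1 cytokines start the NF-kB cascade through IL1R1 and IL1RAP. Many of these genes are read out by the transcription factors NF-kB and AP-1, their messages often carry AU-rich elements that mark them for decay, and MDA-MB-231 cells are known for making several of them without an outside stimulus.

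Deposited values are log2 intensities, so a difference of 1 is a 2-fold difference. A gene is said to have risen or fallen where its Benjamini-Hochberg adjusted p over all 11963 genes was under 0.05 in limma's moderated test, two-sided, and errors of differences are standard errors (SE) with 3 arrays in each group. The 3 comparisons with DMSO share its 3 arrays. Of the 6 markers fixed for this cell line, VIM, EGFR, CD44, AXL, CAV1 and SPARC, all had a highest group mean above 7.06, the level of the median gene, as did 2 of the 6 breast epithelial markers fixed as absent, ERBB2 and GATA3; ESR1, PGR, CDH1 and FOXA1 lay below it. None of 11 leukocyte and 9 fibroblast markers measured reached that level, and their summed values on the log2 scale ranged from 5.59 to 5.69 and from 6.84 to 7.07 over the 12 arrays. Array medians lay between 5.15 and 5.38. Of the 9 fibroblast markers 1 rose with SAHA, where 23.0% of all genes rose, and the median change of the 9 was 0.01. The median change of the leukocyte markers was within 0.04 of 0 in each comparison with DMSO.

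With SAHA, 5 of the 10 genes rose (CXCL8, CXCL1, CXCL2, CXCL3 and IL1A), 2 fell (LIF and IL11) and 3 did not pass (IL6, IL1B and CCL20). Over all genes tested 46.2% passed, 23.0% higher and 23.1% lower, so that passing in itself was common with this drug. With pargyline 1 of the 10, IL11, rose and 9 did not pass, where 15.9% of all genes passed (8.48% higher and 7.45% lower). In COMBO against DMSO 4 rose (CXCL8, CXCL2, CXCL3 and IL1A), LIF and IL11 fell and 4 did not pass, where 48.3% of all genes passed (24.3% higher and 24.0% lower). The groups did not overlap on the arrays for 9, 5 and 8 of the 10 genes in these 3 comparisons, beside 52.9%, 30.8% and 66.0% of all genes. These counts include genes near the bottom of the scale that did not pass. They were IL6 with SAHA and with pargyline, at differences of 0.04, IL1A with pargyline, at 0.11, and CCL20 with SAHA and in COMBO. The median log2 change of the 10 genes was 0.51 with SAHA, 0.18 with pargyline and 0.62 in COMBO, beside 0.00, -0.02 and -0.01 over all genes. With each array centred on its median, SAHA had 5 genes up and 3 down, pargyline 1 up and 1 down and COMBO 4 up and 4 down, as IL1B (adjusted p = 0.0282 with SAHA), and in COMBO also IL6, then passed as lower near the bottom of the scale. Such centring called 6037, 6208 and 7648 of all 11963 genes lower in these 3 comparisons.

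**Figure D1:**
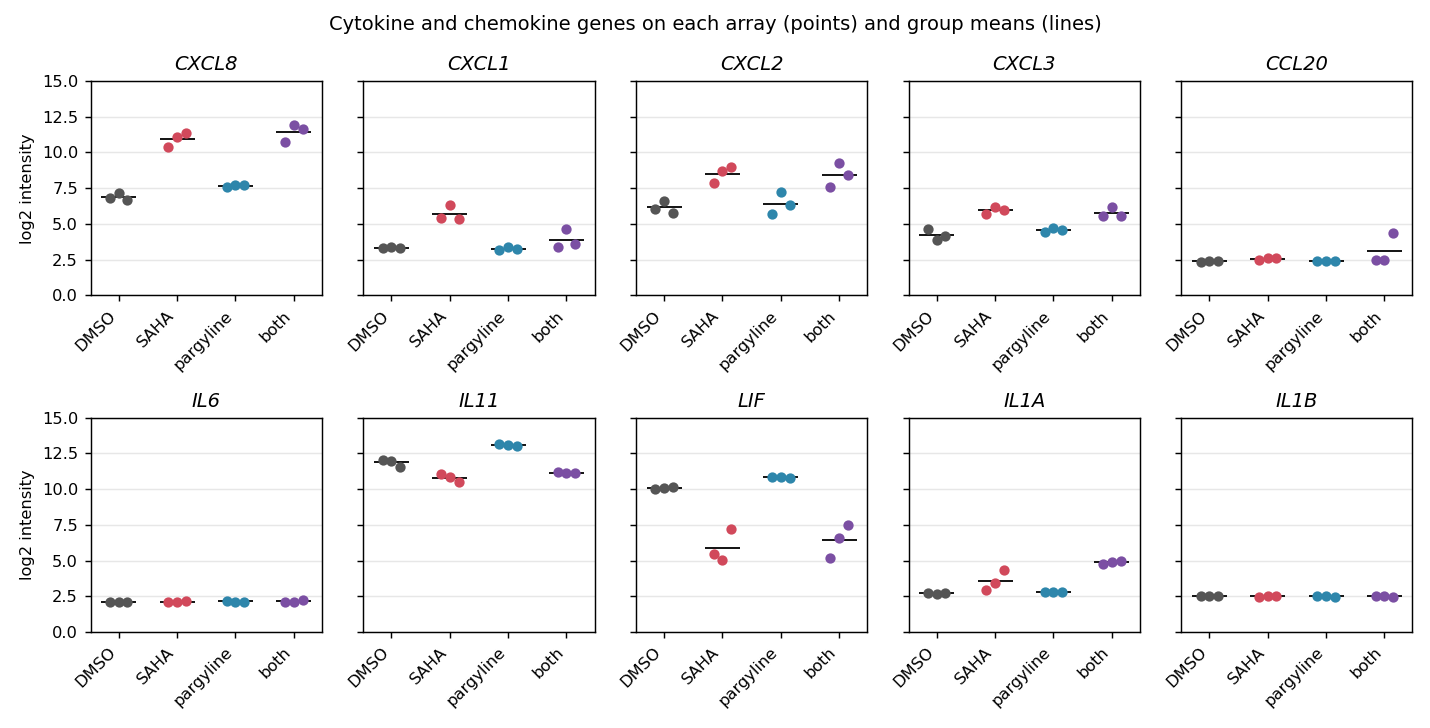
Log2 intensity (vertical axis) of each of the 10 genes in the 4 groups (horizontal axis), with 1 point per array and a line at the group mean, each gene by its brightest probe set. CXCL8 sits between 6.65 and 7.75 without SAHA and between 10.39 and 11.93 with it, LIF runs the other way, and IL6 and IL1B lie near the bottom of the scale on all arrays.

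CXCL8 had the largest rise among the 10 genes, and the other CXC chemokines rose with it under SAHA. CXCL8, the main neutrophil attractant of human cells, read 6.79, 7.14 and 6.65 on the DMSO arrays, 10.39, 11.06 and 11.36 with SAHA, 7.61, 7.75 and 7.70 with pargyline, and 10.76, 11.93 and 11.64 in COMBO. Every SAHA and COMBO array was far above every array without SAHA, and the pargyline arrays also lay just above the DMSO arrays. The rise with SAHA was 4.08 ± 0.31 (SE), or 16.9-fold, with adjusted p = 3.41e-06 in limma, and in COMBO it was 4.58 ± 0.31, or 24.0-fold, with adjusted p = 1.32e-06. With pargyline the difference was 0.83 ± 0.31 with adjusted p = 0.117, and its 95% interval ran from 0.12 to 1.53. That value passed in a fit of the DMSO and pargyline arrays alone (adjusted p = 0.014) and without COMBO replicate 1 (adjusted p = 0.0448).

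A second probe set listed for CXCL8 behaved alike on a lower scale. It read 3.85, 4.85 and 3.96 with DMSO, 8.36, 9.39 and 9.52 with SAHA, 5.16, 5.23 and 5.17 with pargyline, and 8.95, 10.44 and 10.19 in COMBO. The SAHA and COMBO arrays again stood wholly above the others. Its changes were 4.87 ± 0.44 with SAHA (limma adjusted p = 1.26e-05 over all probe sets), 0.96 ± 0.44 with pargyline (adjusted p = 0.221) and 5.64 ± 0.44 in COMBO (adjusted p = 4.03e-06).

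CXCL1, CXCL2 and CXCL3 are close relatives of one another that act through CXCR2. Their coding sequences are similar enough that a probe set listed for one may take some RNA of another, which applies most to CXCL2, whose probe set the array's naming marks as not unique; the same mark is on the brighter CXCL8 probe set. CXCL1 read 3.31, 3.39 and 3.32 with DMSO, 5.41, 6.33 and 5.32 with SAHA, 3.21, 3.39 and 3.21 with pargyline, and 3.41, 4.61 and 3.60 in COMBO. Only the SAHA arrays stood clearly apart, since 2 of the 3 COMBO arrays lay within 0.3 of a DMSO array. The rise with SAHA was 2.35 ± 0.33, or 5.09-fold (limma adjusted p = 0.000185), whereas the COMBO difference was 0.53 ± 0.33 (adjusted p = 0.222, 95% interval -0.20 to 1.27). Without COMBO replicate 2, the highest of its group, it was 0.17.

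CXCL2 read 6.07, 6.61 and 5.79 with DMSO, 7.89, 8.69 and 8.96 with SAHA, 5.71, 7.20 and 6.32 with pargyline, and 7.58, 9.24 and 8.40 in COMBO. The arrays with SAHA were all above those without it, while DMSO and pargyline overlapped. The rises were 2.35 ± 0.50 with SAHA (limma adjusted p = 0.00297) and 2.25 ± 0.50 in COMBO (adjusted p = 0.00361), and the pargyline difference was 0.25 ± 0.50 (adjusted p = 0.81). CXCL3 read 4.62, 3.89 and 4.16 with DMSO, 5.73, 6.21 and 5.97 with SAHA, 4.45, 4.73 and 4.58 with pargyline, and 5.58, 6.20 and 5.53 in COMBO. It had the same order of groups and the same gap between arrays with and without SAHA. It rose by 1.75 ± 0.23 with SAHA (adjusted p = 0.000108) and by 1.54 ± 0.23 in COMBO (adjusted p = 0.000225), with 0.36 ± 0.23 for pargyline (adjusted p = 0.368).

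These 4 genes are neighbours. In the RefSeq gene order of GRCh38.p14 the protein-coding genes from CXCL8 to CXCL2 on chromosome 4 are CXCL8, CXCL6, PF4V1, CXCL1, PF4, PPBP, CXCL5, CXCL3 and CXCL2. The other 5 genes of this row of 9 read between 1.99 and 3.13 on all 12 arrays, near the bottom of the scale. Their log2 changes against DMSO lay between -0.12 and 0.04 in the 3 comparisons, and 0 passed in limma, nor was any at an unadjusted p under 0.05. Intensities that low leave little room to show a fall. A rise from such a level was measured for IL1A on its brighter probe set, with means of 2.70 with DMSO and 4.89 in COMBO. The other IL1A probe set stayed between 2.32 and 2.45 on the same arrays. For the 5 genes, a low level in the cells therefore cannot be told from a probe set that reads poorly.

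**Figure D2:**
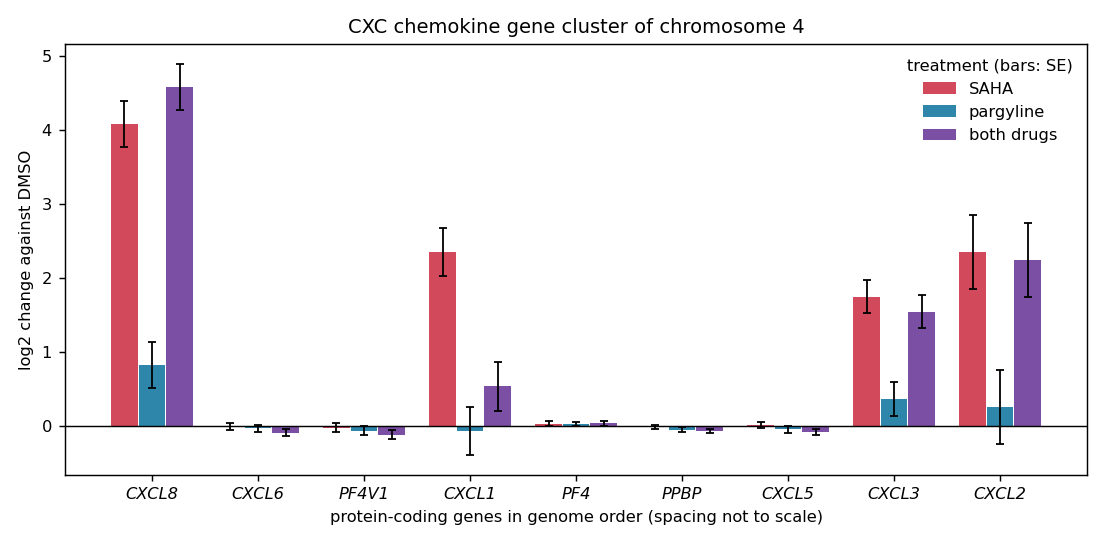
Log2 change against DMSO (vertical axis) of the 9 protein-coding genes from CXCL8 to CXCL2 in their genome order (horizontal axis, spacing not to scale), with 1 bar per treatment and SE as error bars, 3 arrays per group. CXCL8, CXCL1, CXCL3 and CXCL2 carry tall SAHA bars of 1.75 to 4.08, and the bars of CXCL6, PF4V1, PF4, PPBP and CXCL5 stay within 0.12 of 0.

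Promoter sequences of these 4 chemokines, and of IL11, are shown because the 4 chemokine genes rose with SAHA and share an NF-kB-type motif, and IL11 as the gene that rose with pargyline. IL1A also rose with SAHA and its promoter held no GGAATTTCC match, and the fall of IL11 with SAHA was seen by 1 of its 2 probe sets. Each is the 150 bases before the RefSeq start site, 5′ to 3′ on the gene's own strand, build GRCh38.p14, at chr4:73740419-73740568 (plus strand) for CXCL8, chr4:73869243-73869392 (plus) for CXCL1, chr4:74099196-74099345 (minus) for CXCL2, chr4:74038690-74038839 (minus) for CXCL3 and chr19:55370464-55370613 (minus) for IL11. Capitals mark GGAATTTCC, an NF-kB-type sequence, and TGANTCA, the AP-1 sequence, on either strand.
CXCL8: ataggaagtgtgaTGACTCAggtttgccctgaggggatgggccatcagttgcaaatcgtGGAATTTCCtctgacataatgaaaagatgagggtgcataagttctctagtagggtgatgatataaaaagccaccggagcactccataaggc
CXCL1: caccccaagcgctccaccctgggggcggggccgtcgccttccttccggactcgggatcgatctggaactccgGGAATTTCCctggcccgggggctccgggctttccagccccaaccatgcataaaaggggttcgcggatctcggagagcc
CXCL2: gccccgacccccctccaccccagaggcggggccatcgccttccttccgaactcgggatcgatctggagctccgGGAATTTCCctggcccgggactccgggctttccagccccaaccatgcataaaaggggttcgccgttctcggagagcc
CXCL3: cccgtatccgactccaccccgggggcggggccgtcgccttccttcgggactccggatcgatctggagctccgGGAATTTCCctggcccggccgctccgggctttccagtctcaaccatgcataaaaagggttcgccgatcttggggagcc
IL11: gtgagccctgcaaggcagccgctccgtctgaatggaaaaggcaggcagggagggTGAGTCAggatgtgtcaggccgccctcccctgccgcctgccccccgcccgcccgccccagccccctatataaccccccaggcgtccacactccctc
The motifs were picked with the results known, and a match describes letters, not a working site. RefSeq's table held a 300-base window (250 before and 50 after the start site) for 9 of the 10 genes, all but LIF, and 35116 such windows in all. A gene can have a further window, as IL1A did, so the shares below are of windows, whereas the members are counted by gene. GGAATTTCC stood in 0.461% of these windows and in those of CXCL8, CXCL1, CXCL2 and CXCL3 among the 9 genes, at 91, 78, 77 and 78 bases before the start site. CXCL5 and CXCL6, 2 of the neighbours near the bottom of the scale, held it as well. The looser form GGNNTTTCC, which takes in the first, stood in 6.26% of windows and in those of the same 4 chemokines, IL6 and CCL20. TGANTCA was in 7.71% of windows and in CXCL8, IL11 and IL1A, and TTGCNNAA, a C/EBP-type sequence, in 10.5% and in CXCL2, IL6 and IL1B. In the 70 bases just before GGAATTTCC, CXCL1 shared 58 with CXCL2 and 58 with CXCL3, and CXCL2 shared 59 with CXCL3, aligned without gaps. CXCL8 shared 20 to 21 with each of them.

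CCL20, which attracts lymphocytes and dendritic cells through CCR6, read 2.37, 2.41 and 2.42 with DMSO, 2.45, 2.60 and 2.61 with SAHA, 2.43, 2.44 and 2.38 with pargyline, and 2.45, 2.46 and 4.39 in COMBO. A single COMBO array, replicate 3, stood apart, and the other 11 values lay within 0.3 of one another. The COMBO difference from DMSO was 0.70 ± 0.42 (limma adjusted p = 0.219) and was 0.05 without that array. The SAHA difference was 0.15 ± 0.42 (adjusted p = 0.914), and the same 0.15 passed when COMBO replicate 3 was left out (adjusted p = 0.0197), since the spread is estimated over all groups.

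The IL-6 family split into 1 gene at the bottom of the scale and 2 strongly measured genes. IL6, the founding member, read 2.09, 2.10 and 2.10 with DMSO, 2.12, 2.12 and 2.17 with SAHA, 2.15, 2.14 and 2.14 with pargyline, and 2.11, 2.10 and 2.22 in COMBO. It was below the lower quartile of all probe sets of the same array on 11 of 12 arrays, where the quartiles ran from 2.20 to 2.26. Its differences from DMSO were 0.04 in each comparison, with limma adjusted p between 0.320 and 0.510. The array thus gave no measurable IL6 signal or change, and a low level in the cells cannot be told from a probe set that reads poorly.

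IL11 is a cytokine of the same family that signals through IL11RA and gp130. Its brighter probe set read 12.08, 11.96 and 11.57 with DMSO, 11.06, 10.88 and 10.50 with SAHA, 13.19, 13.10 and 12.99 with pargyline, and 11.21, 11.14 and 11.14 in COMBO. No groups overlapped, and SAHA and COMBO lay closest, with every COMBO array just above every SAHA array. It rose by 1.22 ± 0.15, or 2.33-fold, with pargyline (limma adjusted p = 0.001), and fell by 1.05 ± 0.15 with SAHA (adjusted p = 0.000259) and by 0.71 ± 0.15 in COMBO (adjusted p = 0.00323). IL11 was the single gene of the 10 that passed in opposite directions with the 2 drugs, and the direct difference of SAHA from pargyline was -2.28 ± 0.15 (adjusted p = 1.61e-06).

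The second IL11 probe set did not follow the first with SAHA. It read 9.87, 9.70 and 9.28 with DMSO, 9.64, 9.95 and 9.17 with SAHA, 10.30, 10.20 and 10.64 with pargyline, and 8.49, 8.38 and 8.23 in COMBO. On this probe set the DMSO and SAHA arrays overlapped and the COMBO arrays were lowest by a clear gap. Its log2 changes were -0.03 ± 0.21 with SAHA (limma adjusted p = 0.978 over all probe sets), 0.76 ± 0.21 with pargyline (adjusted p = 0.0486) and -1.25 ± 0.21 in COMBO (adjusted p = 0.000833). The rise with pargyline and the fall in COMBO were thus seen by both probe sets, and the fall with SAHA alone by the brighter one only. COMBO against SAHA was 0.35 ± 0.15 on the first (adjusted p = 0.175) and -1.22 ± 0.21 on the second (adjusted p = 0.00608), which are opposite signs.

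LIF, leukaemia inhibitory factor, signals through LIFR and gp130. It read 9.98, 10.05 and 10.16 with DMSO, 5.44, 5.04 and 7.23 with SAHA, 10.87, 10.86 and 10.80 with pargyline, and 5.17, 6.61 and 7.47 in COMBO. All SAHA and COMBO arrays were far below all arrays without SAHA, and their replicates were spread widely, with SDs of 1.17 and 1.16 beside 0.09 and 0.04 for DMSO and pargyline. LIF fell by 4.16 ± 0.62, or 17.9-fold, with SAHA (limma adjusted p = 0.000303) and by 3.65 ± 0.62, or 12.5-fold, in COMBO (adjusted p = 0.000667). Without SAHA replicate 3, the highest of its group, the SAHA change was -4.83. With pargyline every array was above every DMSO array, by 0.78 ± 0.62 on average, and adjusted p = 0.501. All groups share 1 SE in this test, and in a fit of the DMSO and pargyline arrays alone the same difference passed (adjusted p = 0.00268).

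**Figure D3:**
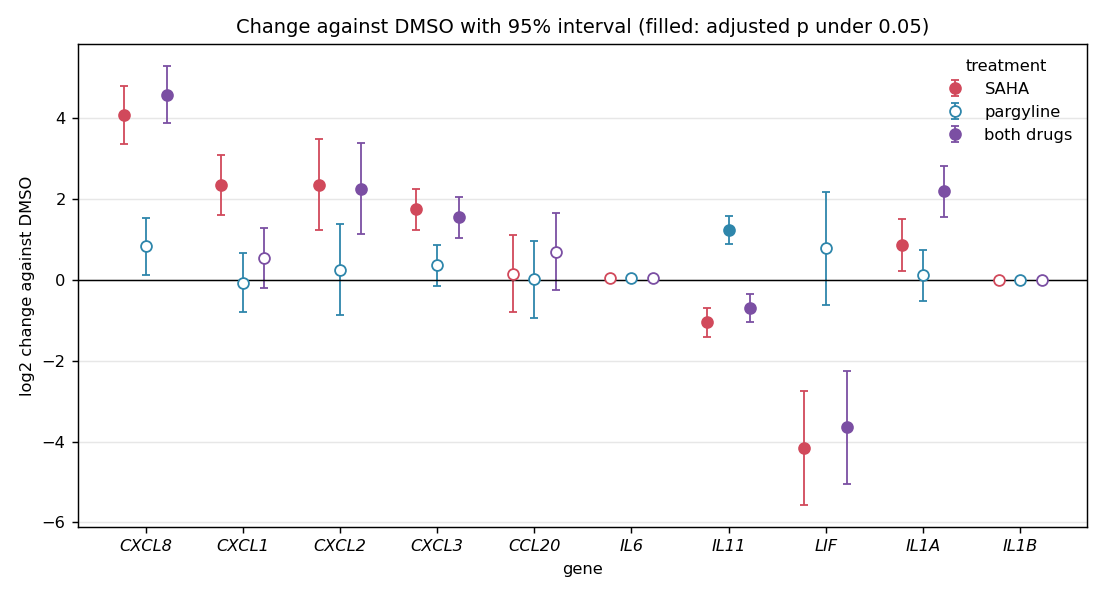
Log2 change against DMSO (vertical axis) of the 10 genes (horizontal axis) with SAHA, pargyline and both drugs, as points with 95% intervals from the fit of 12 arrays, filled where adjusted p is under 0.05. LIF is the largest fall at -4.16 and -3.65, CXCL8 the largest rise at 4.08 and 4.58, and IL11 is the gene with a filled pargyline point, at 1.22.

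IL1A and IL1B encode the alarmin IL-1 alpha, active as its precursor, and IL-1 beta, which a caspase must cut. IL1A read 2.73, 2.68 and 2.71 with DMSO, 2.92, 3.41 and 4.35 with SAHA, 2.84, 2.83 and 2.78 with pargyline, and 4.74, 4.94 and 5.00 in COMBO. The COMBO arrays were all above the SAHA arrays, which were in turn all above the rest but ranged over more than 1 log2 unit. IL1A rose by 2.19 ± 0.28, or 4.56-fold, in COMBO (limma adjusted p = 9.55e-05) and by 0.86 ± 0.28, or 1.81-fold, with SAHA (adjusted p = 0.0308). The SAHA rise did not pass in a fit of its 2 groups alone (adjusted p = 0.132) or without DMSO replicate 1, 2 or 3 (adjusted p = 0.0679, 0.0757 and 0.0689). Without SAHA replicate 3, the highest of its group, it was 0.46 and passed (adjusted p = 0.0175).

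A further IL1A probe set read between 2.32 and 2.45 on all 12 arrays. Its changes were -0.01 with SAHA, -0.07 with pargyline and -0.04 in COMBO (limma adjusted p = 0.937, 0.119 and 0.26 over all probe sets), so the IL1A rise rests on 1 of 2 probe sets. IL1B read between 2.48 and 2.55 on its brighter probe set and between 2.36 and 2.44 on the other over all arrays. Its changes rounded to 0.00 in the 3 comparisons with DMSO, with adjusted p of 0.972 or more. As with IL6, no signal above the bottom of the scale was measured.

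**Figure D4:**
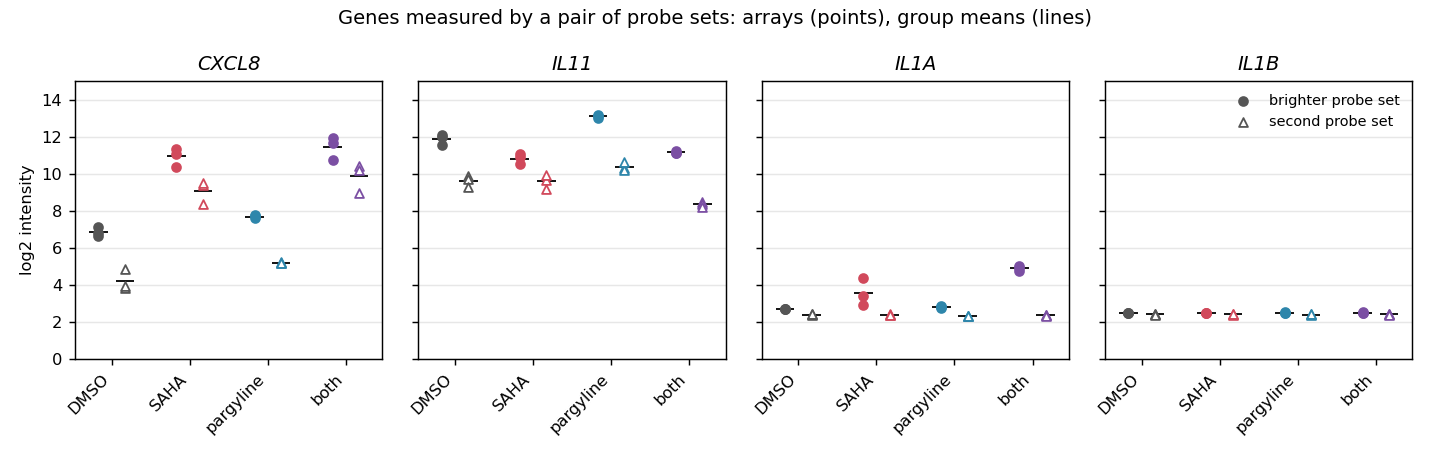
Log2 intensity (vertical axis) on each array for the 4 genes with 2 probe sets, in the 4 groups (horizontal axis), filled circles for the brighter and open triangles for the other probe set, with lines at group means. Both CXCL8 probe sets climb with SAHA, the IL11 probe sets part in SAHA, and IL1A climbs on the brighter probe set alone.

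COMBO was set against each single drug to see what the second drug changed. Against SAHA, 1 of the 10 genes rose, 1 fell and 8 did not pass, where 16.6% of all genes passed (7.88% higher and 8.71% lower), and the groups did not overlap for 3 genes beside 37.6% of all genes. CXCL1 fell by 1.81 ± 0.33, 3.51-fold, and every COMBO array was below every SAHA array (limma adjusted p = 0.00559). IL1A rose by 1.33 ± 0.28, or 2.51-fold (adjusted p = 0.0116). Neither passed in a fit of these 6 arrays alone, with adjusted p = 0.0639 for CXCL1 and 0.0944 for IL1A. With the replicate number as a block the IL11 difference of 0.35 on its brighter probe set passed as well (adjusted p = 0.0426). For the other chemokines and LIF the 95% intervals were -0.20 to 1.21 for CXCL8, -1.23 to 1.02 for CXCL2, -0.71 to 0.30 for CXCL3 and -0.89 to 1.92 for LIF. The intervals of CXCL8, CXCL2, LIF and CCL20 (from -0.41 up) reach past 1, a 2-fold difference, and that of CXCL3 does not.

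Against pargyline alone, COMBO had 4 of the 10 genes higher and 2 lower, where 47.5% of all genes passed (23.9% higher and 23.6% lower). The groups did not overlap for 8 of the 10 genes, CCL20 among them, beside 53.2% of all genes. CXCL8 was higher by 3.76 ± 0.31, IL1A by 2.08 ± 0.28, CXCL2 by 2.00 ± 0.50 and CXCL3 by 1.18 ± 0.23 (limma adjusted p between 6.18e-06 and 0.00751). LIF differed by -4.43 ± 0.62 and IL11 by -1.93 ± 0.15 (adjusted p = 0.000204 and 4.61e-06). SAHA against pargyline gave 4 higher and 2 lower as well, beside 46.2% of all genes (23.4% higher and 22.7% lower), with CXCL8, CXCL1, CXCL2 and CXCL3 above and LIF and IL11 below. Here too 8 of the 10 genes, again with CCL20, had groups that did not overlap, as did 50.9% of all genes. IL1A differed by 0.75 ± 0.28 between SAHA and pargyline (adjusted p = 0.0553). This difference passed with median centring (adjusted p = 0.0398), with the mean of probe sets (0.0386), without dim genes (0.0278) and without SAHA replicate 1 (0.00374), and it was 0.35 without SAHA replicate 3 (0.058).

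The interaction is the effect of both drugs less the 2 single effects added up. In its test 0 of the 10 genes passed in limma, while 3.72% of all genes passed. At an unadjusted p under 0.05, for which the share of all genes was not counted, there were 3 of the 10. These 3 were CXCL1 at -1.75 ± 0.46 (adjusted p = 0.0776), IL11 at -0.87 ± 0.22 (adjusted p = 0.0638) and IL1A at 1.22 ± 0.40 (adjusted p = 0.142). With the replicate number as a block 2 of the 10 passed, IL11 (adjusted p = 0.0189) and CXCL1 (adjusted p = 0.0308), and the same 2 passed without dim genes (0.0385 and 0.042). Over all genes the main fit gave 153 higher and 292 lower of 11963. The block gave 275 and 395 of 11963, and leaving out dim genes 176 and 323 of 7975. The second IL11 probe set gave -1.98 ± 0.30 (adjusted p = 0.0142 over all probe sets). CXCL8 gave -0.32 ± 0.44 and LIF -0.26 ± 0.88, and their 95% intervals of -1.32 to 0.68 and -2.25 to 1.72 leave room for sizeable departures from additivity.

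Within each gene, the order of the 4 group means put COMBO and SAHA at the top for CXCL8, CXCL1, CXCL2, CXCL3 and IL1A, and at the bottom for LIF and IL11. For CXCL8 the order was COMBO 11.44 ± 0.61 (SD, n = 3), SAHA 10.94 ± 0.50, pargyline 7.69 ± 0.07 and DMSO 6.86 ± 0.25, where only the step from SAHA to pargyline passed. IL11 on its brighter probe set ran from pargyline 13.09 ± 0.10 over DMSO 11.87 ± 0.27 and COMBO 11.16 ± 0.04 to SAHA 10.81 ± 0.29, with the first and second steps passing. On its second probe set COMBO was lowest at 8.37, with SAHA at 9.59, DMSO at 9.62 and pargyline at 10.38. LIF ran from pargyline 10.84 ± 0.04 and DMSO 10.07 ± 0.09, which did not differ in the test, to COMBO 6.42 ± 1.16 and SAHA 5.90 ± 1.17, which did not either. CXCL1 stood at 5.69 ± 0.56 with SAHA, above COMBO at 3.87 ± 0.65, and COMBO, DMSO (3.34 ± 0.04) and pargyline (3.27 ± 0.11) did not differ in the test.

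The receptors these signals use were measured on the same arrays. Of 13 receptor and decoy genes, 4 rose and 1 fell with SAHA, 2 rose and 1 fell with pargyline, and 5 rose and 1 fell in COMBO, with medians of 0.02, 0.00 and 0.00 log2. The shares of all genes that passed in these comparisons were 46.2%, 15.9% and 48.3%. With median centring 4 rose and 4 fell, 2 rose and 8 fell, and 5 rose and 7 fell. Over all 11963 genes, centring gave 2410 higher and 6037 lower with SAHA, 870 and 6208 with pargyline, and 2472 and 7648 in COMBO. The centred counts of each list below are to be read beside these. LIFR, the receptor chain of LIF, rose by 2.29 ± 0.25 with SAHA and by 1.96 ± 0.25 in COMBO, and fell by 0.93 ± 0.25 with pargyline (limma adjusted p = 0.0337). Its direction was thus opposite to that of LIF, whose pargyline difference of 0.78 did not pass. IL1RAP, the IL-1 receptor partner chain, rose by 1.60 ± 0.09, 0.67 ± 0.09 and 2.21 ± 0.09 with SAHA, pargyline and both, and OSMR, the oncostatin M receptor, by 1.16 ± 0.31 with pargyline and 1.33 ± 0.31 in COMBO. Named after their values were seen, the IL-11 receptor gene IL11RA rose by 2.92 ± 0.28 with SAHA from a DMSO mean of 2.38, and the shared chain IL6ST by 0.59 ± 0.11 with SAHA and 0.86 ± 0.11 in COMBO. The IL-6 receptor gene IL6R, likewise named after its values were seen, fell by 1.22 ± 0.18 with SAHA and changed by -1.14 ± 0.18 in COMBO (limma adjusted p = 0.000265 and 0.000374), while its second probe set gave 0.01 and -0.02 and did not pass. The chemokine receptor genes CXCR1, CXCR2 and CCR6 had group means between 1.58 and 2.85 and did not pass.

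Among 27 other cytokine and chemokine genes measured, 1 rose and 1 fell with SAHA, 4 rose with pargyline, and 3 rose and 1 fell in COMBO, where 46.2%, 15.9% and 48.3% of all genes passed. With quantile normalization 3 rose with pargyline, and 5 rose and 2 fell in COMBO. Median centring left the same counts of rises and gave 12, 19 and 21 falls, beside 6037, 6208 and 7648 falls among all 11963 genes. CSF1, a macrophage growth factor, shared the pattern of IL11 in that it fell by 1.79 ± 0.24 with SAHA, rose by 1.75 ± 0.24 with pargyline (limma adjusted p = 0.00152) and fell by 0.71 ± 0.24 in COMBO (adjusted p = 0.0338). Its 3 further probe sets stayed within 0.09 of DMSO in these comparisons. IL15 rose by 0.50 ± 0.13, 0.72 ± 0.13 and 0.76 ± 0.13 with SAHA, pargyline and both. IL18 rose by 1.06 ± 0.25 in COMBO (adjusted p = 0.00462), beside 0.43 with SAHA and 0.54 with pargyline, which did not pass, and COMBO did not differ from SAHA or pargyline in the test (adjusted p = 0.123 and 0.122). IL7 and IL12A, named after their values were seen, rose by 0.92 and 1.06 with pargyline.

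Of 19 NF-kB pathway genes, 9 rose and 5 fell with SAHA (median 0.28), 1 rose with pargyline (0.06), and 10 rose and 5 fell in COMBO (0.20), beside the shares of all genes given above. With median centring 8 rose and 6 fell, 1 rose and 3 fell, and 8 rose and 6 fell. NFKB1, which encodes the p105 precursor of p50, fell by 4.36 ± 0.36 with SAHA and by 4.46 ± 0.36 in COMBO (limma adjusted p = 5.39e-06 and 3.9e-06), while its relative NFKB2 rose by 2.04 ± 0.15 and 2.41 ± 0.15. TNFAIP3, the A20 enzyme that NF-kB induces and that restrains it, rose by 2.38 ± 0.21 and 2.40 ± 0.21. With pargyline these 3 genes gave -0.60, 0.13 and 0.16 and did not pass. One of the further NFKB2 probe sets gave -0.01 with SAHA and the other 1.11.

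Of 12 AP-1 and C/EBP genes, 6 rose and 3 fell with SAHA, 5 rose and 1 fell with pargyline, and 7 rose and 2 fell in COMBO, with medians of 0.26, 0.28 and 0.70. Among all genes 46.2%, 15.9% and 48.3% passed. FOS rose by 4.42 ± 0.26 with SAHA and by 5.89 ± 0.26 in COMBO, from a DMSO mean of 2.56, and was 0.08 from DMSO with pargyline. ATF3, a stress-induced factor, rose by 4.67 ± 0.20, 2.39 ± 0.20 and 5.76 ± 0.20 with SAHA, pargyline and both, with an interaction of -1.30 (limma adjusted p = 0.0377). FOSL1, a FOS relative typical of this invasive line, fell with SAHA (-2.16 ± 0.11), pargyline (-0.63 ± 0.11) and both (-2.98 ± 0.11).

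Downstream of gp130, 5 of 11 JAK-STAT3 genes rose and 2 fell with SAHA, 1 rose with pargyline, and 5 rose and 2 fell in COMBO, with medians of 0.10, -0.03 and 0.02 (5 up and 4 down, 1 up and 3 down, 5 up and 5 down with median centring). Without centring 46.2%, 15.9% and 48.3% of all genes passed. STAT3 rose by 0.99 ± 0.10 with SAHA and 1.39 ± 0.10 in COMBO, JAK1 by 0.79 ± 0.05 and 0.86 ± 0.05, and the feedback inhibitor SOCS2 by 1.09 ± 0.17 and 0.70 ± 0.17. On the second SOCS2 probe set the COMBO difference of 0.50 did not pass (adjusted p = 0.0619). Among 13 NF-kB inflammatory effectors, 4 rose and 2 fell with SAHA, 3 rose and 1 fell with pargyline, and 4 rose and 2 fell in COMBO, with medians within 0.01 of 0 (4 up and 7 down, 3 up and 6 down, 4 up and 7 down with median centring). The same shares of all genes stand beside these counts. The urokinase gene PLAU fell by 5.43 ± 0.65 with SAHA and by 5.44 ± 0.65 in COMBO, TNFAIP2 fell with SAHA (-1.76 ± 0.11), pargyline (-0.44 ± 0.11) and both (-1.41 ± 0.11), and PTGES, a prostaglandin E synthase, rose by 2.17 ± 0.20 with pargyline and 1.13 ± 0.20 in COMBO. The second TNFAIP2 probe set gave -0.03, -0.02 and -0.02 and did not pass, so its fall rests on 1 of 2. PTGS2 (COX-2), named after its values were seen, rose by 2.53, 2.10 and 3.00 with SAHA, pargyline and both.

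Of 8 genes for proteins that bind AU-rich elements, 6 fell and 1 rose with SAHA (median -0.45), 2 fell and 6 did not pass with pargyline (-0.20), and 6 fell and 1 rose in COMBO (-0.58), where 23.1%, 7.45% and 24.0% of all genes fell. With median centring 6 fell and 1 rose, 5 fell, and 7 fell and 1 rose, beside the centred falls of all genes given above. The one that rose was ZFP36 (tristetraprolin), which promotes decay of such messages, by 2.80 ± 0.30 with SAHA and 2.78 ± 0.30 in COMBO. Its relative ZFP36L2 fell by 1.56 ± 0.08 and 1.46 ± 0.08, and HNRNPD (AUF1) by 0.73 ± 0.08 and 1.10 ± 0.08. Of the 5 further HNRNPD probe sets, 1 gave 0.00 with SAHA and -0.06 in COMBO, and another -1.48 with SAHA and 0.05 in COMBO. Of 9 genes for processing and release of IL-1, 5 fell with SAHA (median -0.76), 1 rose with pargyline (-0.02) and 5 fell in COMBO (-1.01). Among all genes 23.1% fell with SAHA, 8.48% rose with pargyline and 24.0% fell in COMBO. With median centring 8 and 9 fell with SAHA and in COMBO, and 1 rose and 4 fell with pargyline, again beside those centred falls of all genes. CASP4, an inflammatory caspase, fell by 4.11 ± 0.28 with SAHA and by 2.89 ± 0.28 in COMBO and rose by 1.17 ± 0.28 with pargyline (limma adjusted p = 0.0222), though its second probe set stayed within 0.02 of DMSO. CAPN2, a calpain subunit of the kind that cuts IL-1 alpha, fell by 1.12 ± 0.11 both with SAHA and in COMBO, and the pore-forming GSDME by 0.76 ± 0.18 and 1.01 ± 0.18. The second CAPN2 probe set gave -0.60 and -0.62 and did not pass.

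For the 4 genes with a highest group mean above 7.06, the most alike genes were sought by Pearson's r over the 12 arrays among 2781 genes that varied by an SD of at least 0.5, and these values mainly reflect the shared order of the 4 groups. CXCL8 was most like NEBL (r = 0.991), CD24 (0.991) and PTCH1 (0.989). IL11 was most like TMEM97 (0.986), P3H4 (0.979) and SH3TC1 (0.979). LIF was most like HMGA2 (0.995), PLAU (0.990) and LRP5 (0.989), and CXCL2 was most like RARA (0.961), ZNF23 (0.959) and KLHL28 (0.954). PLAU, the urokinase gene, had group means of 11.62 with DMSO and 6.18 both with SAHA and in COMBO.

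The difference between 3′ and 5′ probe sets of the actin control, a sign of RNA length, was 0.89 ± 0.05 in COMBO (mean and SD of 3 arrays), 0.84 ± 0.07 for SAHA, 0.80 ± 0.17 for pargyline and 0.79 ± 0.03 for DMSO. For the GAPDH control it was -0.001 ± 0.037, 0.019 ± 0.012, -0.003 ± 0.052 and 0.019 ± 0.006 in the same order, without a rise in COMBO. The MDA-MB-231 markers summed to 16.40 to 16.43 on the log2 scale with DMSO, 15.67 to 15.82 with SAHA, 16.29 to 16.34 with pargyline and 15.64 to 15.76 in COMBO, and 4 of the 6 fell with SAHA. What part RNA length or the fall of these markers had in the changes above was not tested.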

How the data were processed

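The authors deposited log2 intensities for 12 single-colour Affymetrix arrays; the submitters' processing notes name RMA, and its software version and whether the 12 arrays were normalized together are not given in the sources used here. The deposited log2 values were used unchanged, with no background correction, scaling or filter. Of 22277 probe sets, 62 were controls, 19064 were listed for 1 gene, 1043 for several and 2108 for none; 19052 of the 19064 matched the RefSeq table (GRCh38.p14) by gene identifier. Each of 11963 genes was read from its brightest probe set (highest mean over the arrays). A mean per group was fitted to all 12 arrays with limma 3.58.1 (lmFit, eBayes) in R 4.3.3, Benjamini-Hochberg adjusted over all genes. The procedure was also run on simulated data with independent arrays and the same SD in every group of a gene. That run cannot speak to correlated arrays or to spreads that differ between groups. The number of arrays limits the precision; the median SE of a difference was 0.077.

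The members and gene lists were chosen with earlier results of these data known. All 10 members were named; from other lists up to 3 genes with the largest change against DMSO that passed and had a highest group mean above 7.06, and the 3 genes most alike to each member above that level, were named, with exceptions stated. List genes not analysed here, for want of a probe set of their own, included CXCL16, CCL3, CSF2, BCL3, BIRC3, TRAF2, IRAK2, SOD2, SAA1 and ZC3H12A. Alternatives were quantile normalization, median centring, the mean of probe sets, every probe set, leaving out dim genes, a replicate block, the compared groups alone and leaving out each array. Replicates are biological per the labels, which do not say whether equal numbers share a culture date. By the correlation of residuals, equal numbers paired the arrays (every r over 0.1) for SAHA with COMBO (0.397, 0.257 and 0.535) and for DMSO with pargyline, and over all groups 13 of 18 pairs passed 0.1; this pairing comes from the data and not from the labels, and the block's value stands beside results whose call it changed. Python 3.11.15, pandas 2.3.3 and matplotlib 3.10.9 were used.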

Additional observations from a re-analysis of the deposited data

Results flagged for a closer look

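The second IL11 probe set had an interaction of -1.98 on the log2 scale (limma adjusted p = 0.0142 over all probe sets), so by a direct test the effect of pargyline on it differed with and without SAHA: 0.76 against DMSO and -1.22 against SAHA. All 3 COMBO arrays lay below all 9 others. The brighter IL11 probe set gave -0.87 with adjusted p = 0.0638.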

How the results depend on the processing

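Counts of the 10 genes that passed were 7 with SAHA (6 to 8 leaving out each array), 1 with pargyline (1 to 2), 6 in COMBO against DMSO (6 to 6), 2 against SAHA (2 to 2), 6 against pargyline (6 to 6), 6 for SAHA against pargyline (6 to 7) and 0 for the interaction (0 to 2). Quantile normalization changed no call of the 10 genes in the 7 comparisons. Neither did the fit of every probe set, but there each gene was still read from its brightest probe set, with the same log2 changes. That fit therefore says nothing of the second probe sets, and those of IL11 and IL1A gave other calls, as described above. Quantile normalization did change calls in the other lists against DMSO: the other cytokines as given above, 2 rather than 1 receptor genes down and 6 rather than 5 IL-1 processing genes down in COMBO, and with pargyline 0 rather than 1 JAK-STAT3 genes up and 1 rather than 0 NF-kB pathway genes down. Median centring moved the median change of all genes most in COMBO against DMSO, from -0.01 to -0.18. It reversed IL1B with pargyline to -0.13 (limma adjusted p = 0.0212) and IL6 in COMBO against DMSO to -0.13 (adjusted p = 0.00577), both at the bottom of the scale, and gave 2 genes for pargyline, 1 up and 1 down, and 4 up and 4 down in COMBO against DMSO. Fitting the compared groups alone gave 3 genes for pargyline, with CXCL8 and LIF added, and 0 for COMBO against SAHA. Over all genes that fit gave 1001 higher and 868 lower for pargyline, beside 1014 and 891 in the main fit. For COMBO against SAHA it gave 616 and 614, beside 943 and 1042. The interaction had 1 gene with the mean of probe sets (IL11), 2 without dim genes (IL11 and CXCL1), 2 without SAHA replicate 3 (IL11 and IL1A) and 1 without COMBO replicate 2 (CXCL1). Over all genes these 4 settings gave 165 higher and 308 lower, 176 and 323 of 7975, 134 and 255, and 86 and 160. The main fit gave 153 and 292. Leaving out dim genes drops IL6, IL1B and CCL20, and 7 of the 10 remain. With a replicate block the interaction had 2 genes (IL11, adjusted p = 0.0189, and CXCL1, adjusted p = 0.0308) and IL11 passed in COMBO against SAHA (adjusted p = 0.0426), with no other call of the 10 genes changed. Over all genes the block gave 275 higher and 395 lower in the interaction, and 1169 and 1250 in COMBO against SAHA. Residuals of equally numbered arrays correlated with r from 0.081 to 0.535, and 12 of 12 arrays correlated best with their own number, though not every pair of all groups passed 0.1.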
